A study of Mus musculus with 6 samples.

Results

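The 10 genes that make, regulate and break down polyamines in mouse, taken by name from a list, were followed in J774 macrophages with and without NCOA4 depletion. They are Odc1, Amd1, Srm and Sms (synthesis), Oaz1, Oaz2 and Azin1 (control of ornithine decarboxylase), and Sat1, Smox and Paox (catabolism), 10 of the 55487 genes measured. J774 cells are an established line of mouse macrophages, and all were grown in the same medium with serum. The compared groups were cells transfected with control siRNA (n = 3) and cells transfected with NCOA4 siRNA (n = 3), where an siRNA (small interfering RNA) is a synthetic duplex that lowers the mRNA it matches, delivered here with a liposome reagent. The gene itself was not edited, and 1 siRNA design stood for NCOA4 depletion, so effects on other targets of that siRNA cannot be told apart from loss of NCOA4, the receptor that carries ferritin to the lysosome. The libraries are labelled as biological replicates, with no culture, passage or date given, so batches could not be looked for and the errors below cover only the spread between these samples.

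Polyamines (putrescine, spermidine and spermine) are small positively charged molecules that bind RNA and DNA, and growing cells need them for translation. Ornithine decarboxylase, the product of Odc1, makes putrescine from ornithine and is the pathway's most closely regulated enzyme: rising polyamines make ribosomes shift frame on antizyme mRNA, and antizyme then binds the enzyme and sends it to the proteasome. In macrophages, arginase supplies the ornithine, and spermidine is also the source of hypusine, a modified amino acid in the translation factor eIF5A.

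The sequences that bear on the values below are of 3 kinds. The first pair is shown because reads of Odc1 and of its most abundant near-identical copy have to be kept apart in counting. These are the first 75 coding bases of Odc1, at chr12:17547299-17547373 on the plus strand of GRCm38, and the same stretch of Gm7993, an annotated processed pseudogene, at chr5:95974240-95974314 on the plus strand. Capitals mark the 2 bases that differ.
Odc1: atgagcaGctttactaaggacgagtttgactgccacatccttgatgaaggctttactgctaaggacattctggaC
Gm7993: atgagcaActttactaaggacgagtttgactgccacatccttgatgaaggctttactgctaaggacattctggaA
The second pair is the frameshift site of the antizymes, shown because it is where polyamine levels act on these mRNAs without any need for a change in mRNA abundance. The sites lie in exons at chr10:80828283-80828312 (Oaz1) and chr9:65686260-65686289 (Oaz2), both on the plus strand, and capitals mark the codon before the stop, the stop codon TGA and the next base. The annotated coding transcripts leave out 1 base here, as the shifted ribosome does.
Oaz1: cggtggtgcTCCTGATgtccctcacccacc
Oaz2: ctgtggtgcTCCTGATgcccctcacccact
The third is the short reading frame in the 5′ untranslated region of Amd1, at which spermidine is known to stall ribosomes. It lies on the minus strand at chr10:40302155-40302175, and Amd2 carries the identical 21 bases at chr10:35711860-35711880, also on the minus strand. It is printed because the identity of Amd1 and Amd2 limits what can be said of either.
Amd1: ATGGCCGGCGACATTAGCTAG
Amd2: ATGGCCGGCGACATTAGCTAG

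The authors deposited TPM (reads per base of gene length, scaled to a sum of 1000000 in each library), and depth was between 15502109 and 18282067 reads on genes as rebuilt from TPM. Ncoa4, the targeted gene, was at 19.7, 22.5 and 22.4 TPM with control siRNA and at 9.63, 8.60 and 8.88 TPM with NCOA4 siRNA, that is, 41.9% of the control mean (log2 difference −1.21 ± 0.0767 SE, limma adjusted p = 0.00127). Control replicate 1 stood apart from the other libraries: its counts differed from those of control replicates 2 and 3 with a chi-square of 11.6 per gene, against 3.60 between replicates 2 and 3 and 1.96 to 2.36 among the NCOA4 siRNA libraries, so values are also given without it. All 8 macrophage markers had reads, with a summed level of 7426 to 7551 TPM with control siRNA and of 7857 to 7998 TPM with NCOA4 siRNA. Of these 8 markers, 3 were higher at an adjusted p under 0.05 in the limma fit, where 5.42% of the 13829 tested genes were called in either direction. They were Adgre1 (log2 difference 0.61, adjusted p = 0.0248), Csf1r (0.31, adjusted p = 0.0218) and Mertk (0.48, adjusted p = 0.00965). Lyz2 (0.15, limma adjusted p = 0.161), Itgam (0.18, 0.101) and Ptprc (0.22, 0.165) were not called, but were higher with groups that did not overlap. Spi1 overlapped between the groups. Cd68 went the other way, from 1832 ± 198 to 1570 ± 55.7 TPM (SD, n = 3) with groups that did not overlap (−0.22, limma adjusted p = 0.178). The part of these markers in the results below was not tested. T cell, fibroblast and epithelial markers summed to at most 0.174 TPM per list in any library, with Cd3e, Cd8a, Col1a2, Krt8 and Cdh1 at 0 in all, and endothelial markers to between 0.913 and 1.61 TPM.

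The polyamine genes did not move together. Odc1 was 1.65-fold lower with NCOA4 siRNA, Amd1, Sat1 and Paox were 1.15-fold to 1.22-fold higher with groups that did not overlap, and the other 6 members had overlapping groups. The rule that chose these genes used this same contrast, so their differences are given as a description, without p-values. All 10 passed the filter on low values (a mean of at least 0.5 TPM). At an adjusted p under 0.05, 1 of 10 members (Odc1) was called, where 5.42% of the 13829 tested genes were, and Odc1 was also the 1 member called lower with a fold above 1.5, where 0.318% of tested genes were. The groups did not overlap for 4 of 10 members (3 higher, 1 lower), where 28.4% of tested genes had groups that did not overlap. The median log2 difference, here and below (except for sums with copies) on the log2(TPM + 0.5) scale as NCOA4 siRNA minus control siRNA, was −0.01 over the 10 members and 0.03 over all tested genes.

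**Figure D1:**
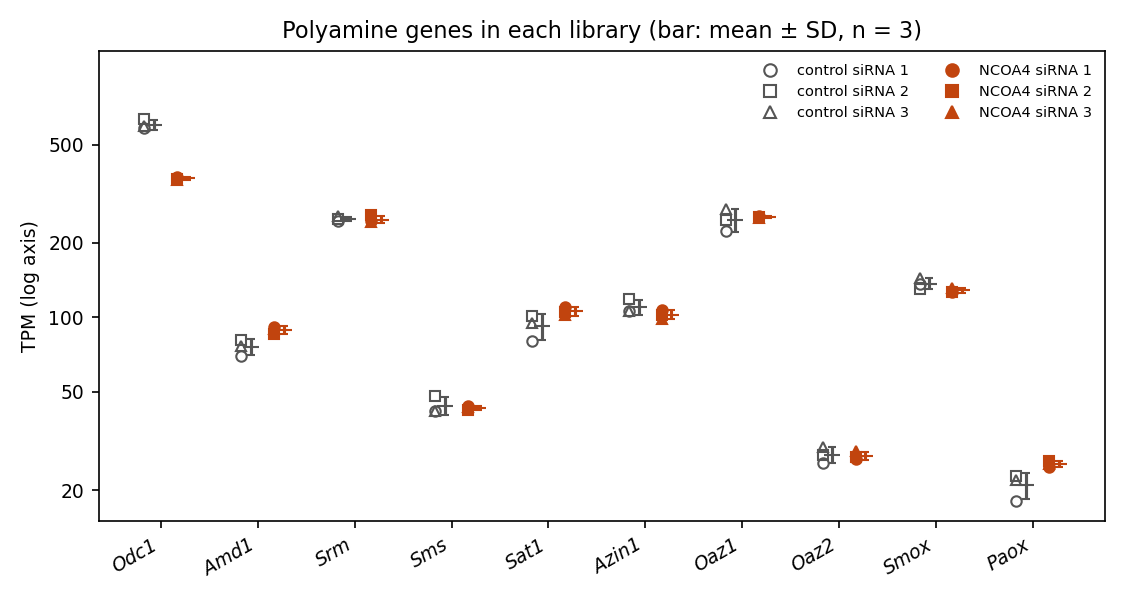
TPM on a log axis of the 10 polyamine genes in each of the 6 libraries, with open symbols for control siRNA, filled symbols for NCOA4 siRNA, symbol shape for replicate, and bars for the mean ± SD (n = 3). Odc1 is the highest member in every library, and its NCOA4 siRNA values (361 to 370 TPM) lie far below its control values (581 to 633 TPM), while most other members have groups that touch or overlap.

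In control cells the members spanned a wide range of abundance. Odc1 led with 602 ± 27.2 TPM (SD, n = 3), above 98.4% of tested genes, and Paox was lowest with 20.9 ± 2.45 TPM, above 55.6% of them. Between them stood, in order of mean TPM, Srm (251), Oaz1 (248), Smox (137), Azin1 (110), Sat1 (92.2), Amd1 (75.9), Sms (44.0) and Oaz2 (27.8). The control values of neighbours in this order did not overlap, except for Srm with Oaz1 and Sat1 with Amd1. TPM is per length, so these levels can be set beside each other where reads belong to 1 gene. Amd1, Oaz1, Sms and Paox share 66.8%, 37.0%, 26.7% and 23.5% of their stretches of 150 bases with near-identical copies. Fragments were sequenced from both ends, and these shares look at a single end. How reads in such stretches were counted is not given, so the places of these genes in the order are uncertain.

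Among the synthesis genes, the large difference was in the first enzyme of the pathway. Odc1 (ENSMUSG00000011179, chr12:17544794-17551505, plus strand) was at 581, 633 and 593 TPM with control siRNA and at 370, 364 and 361 TPM with NCOA4 siRNA. Every NCOA4 siRNA library was below every control library, by at least 211 TPM, and the spread among the NCOA4 siRNA libraries (SD 4.73 TPM) was small beside that gap. The mean was 60.6% of control (log2 difference −0.72 ± 0.0434 SE), from 10521 to 13066 reads per control library and 6761 to 7419 per NCOA4 siRNA library. Without control replicate 1 the log2 difference was −0.75. Ranked from the most negative log2 difference, Odc1 was number 181 of 13829 tested genes and number 5 of the 1641 genes with a control mean of at least 100 TPM. In bulk RNA, fewer cells with the transcript and less transcript per cell cannot be told apart.

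Amd1 encodes S-adenosylmethionine decarboxylase, which makes the aminopropyl donor for spermidine and spermine, and it moved the other way. Amd1 (ENSMUSG00000075232, chr10:40287458-40302186, minus strand) was at 69.9, 80.8 and 76.9 TPM with control siRNA and at 91.4, 85.4 and 90.0 TPM with NCOA4 siRNA. All NCOA4 siRNA values were above all control values, with a gap of 4.58 TPM between the groups, and control replicate 1 was the lowest library. The log2 difference was 0.23 ± 0.0614 SE, and 0.17 without control replicate 1.

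Both aminopropyl transferases were level. Srm (spermidine synthase, chr4:148591503-148594993, plus strand) was at 246, 249 and 256 TPM with control siRNA and at 245, 259 and 243 TPM with NCOA4 siRNA (log2 difference −0.01 ± 0.0399 SE). Sms (spermine synthase, chrX:157443855-157492287, minus strand) was at 41.7, 48.2 and 42.0 TPM and at 43.8, 42.2 and 43.2 TPM (−0.03 ± 0.0645 SE). For both genes the values of the groups overlapped.

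Odc1 has several near-identical copies in the genome, and reads placed on them were lower too. Copies were searched for among all annotated transcripts, as aligned stretches of at least 300 bases with at least 95% identity, a check chosen after seeing the data, and 5 copies of Odc1 had reads. Gm7993, with 95.7% identity to Odc1 over 1388 bases, was listed at 506, 403 and 416 TPM with control siRNA and at 230, 230 and 244 TPM with NCOA4 siRNA (log2 difference −0.90 ± 0.0867 SE). Control replicate 1 was the highest library for Gm7993, and the lowest control library for Odc1. Gm17709 had 27.0 ± 2.96 TPM with control siRNA against 13.8 ± 1.35 TPM with NCOA4 siRNA (SD, n = 3), and Gm9260 had 4.57 ± 0.831 and 2.31 ± 0.377 TPM. For these 3 copies the groups did not overlap, whereas for Gm9115 (6.82 ± 2.32 and 4.53 ± 0.638 TPM) they did, and the fifth, Rps7-ps2, stayed under 0.4 TPM in every library.

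Whether reads on the copies were transcribed from them or from Odc1 cannot be told apart in these files, so the copies were also summed with it. Reads on copies made up 21.3% to 27.2% of the sum in the 6 libraries. Scaled to 1000000 reads on genes in each library (RPM), the sums were 919, 916 and 888 with control siRNA and 537, 537 and 539 with NCOA4 siRNA. The summed values were closer to each other within a group than those of Odc1 alone, which were 669, 715 and 679 RPM with control siRNA and 422, 421 and 415 with NCOA4 siRNA. The log2 difference of the sum was −0.76 ± 0.0161 SE, and −0.75 without control replicate 1. For sums with copies, here and below, the SE comes from the spread within the groups, not from limma. It therefore cannot be set beside the limma SE of a gene alone. Computed as for the sums, Odc1 alone had a log2 difference of −0.71 ± 0.0297 SE in RPM. Of the 2059 windows of 150 bases (1 read, from a single end of a fragment) in the Odc1 transcript, 2.87% are found unchanged in a copy with reads.

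**Figure D2:**
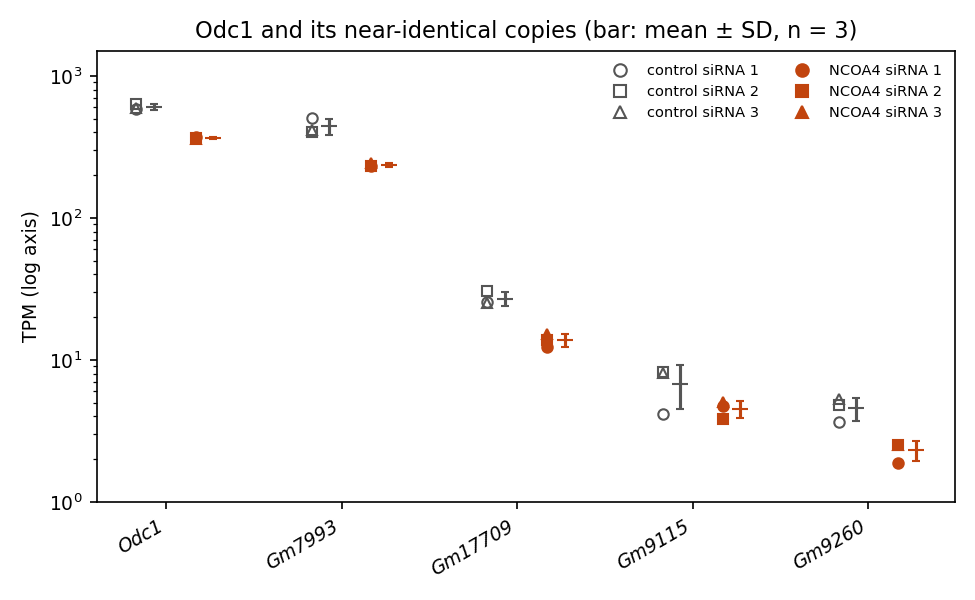
TPM on a log axis of Odc1 and 4 of its near-identical copies in each library (open symbols control siRNA, filled symbols NCOA4 siRNA, bars mean ± SD, n = 3). The NCOA4 siRNA values are below all control values for Odc1, Gm7993, Gm17709 and Gm9260, and overlap the control values for Gm9115.

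Amd1, Sms, Oaz1 and Paox have more of their sequence in common with copies than Odc1 does, but smaller parts of their summed reads lay on them. Sms-ps is identical to Sms over 1101 bases and was listed at 53.2 ± 1.28 TPM with control siRNA against 50.2 ± 4.98 TPM with NCOA4 siRNA, a mean of 119% of that of Sms, so the level of Sms is uncertain. The sum of Sms and its copies had a log2 difference of −0.03 ± 0.0527 SE. Amd1 shares 66.8% of its windows of 150 bases with copies that have reads, among them Amd2, whose coding sequence is 99.9% identical. Copies held 4.82% to 6.31% of the summed Amd1 reads, and the sum had a log2 difference of 0.25 ± 0.0551 SE. Oaz1 shares 37.0% of its windows with Oaz1-ps and Oaz2 none with Oaz2-ps, and their sums differed by 0.05 ± 0.0865 SE and −0.02 ± 0.0807 SE. For Srm, Sat1, Azin1 and Smox no such copy was found.

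The genes that control ornithine decarboxylase after translation were close to their control levels. Oaz1, the main antizyme (chr10:80826656-80829290, plus strand), was at 223, 248 and 275 TPM with control siRNA and at 256, 255 and 252 TPM with NCOA4 siRNA (log2 difference 0.04 ± 0.0739 SE). Its control libraries spread across the NCOA4 siRNA values, with replicate 1 lowest, and without that replicate the log2 difference was −0.04. Oaz2, a second antizyme with 64.2% identity to Oaz1 over the aligned coding bases, stood at 25.7, 27.8 and 29.96 TPM with control siRNA and at 26.6, 27.2 and 28.7 TPM with NCOA4 siRNA (−0.02 ± 0.0671 SE; chr9:65668001-65690300, plus strand).

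Azin1 encodes the antizyme inhibitor, a relative of ornithine decarboxylase without enzyme activity that takes up antizyme in its place (60.7% identity to Odc1 over the aligned coding bases). It was at 106, 119 and 106 TPM with control siRNA and at 107, 102 and 98.7 TPM with NCOA4 siRNA (−0.10 ± 0.0597 SE; chr15:38487427-38519266, minus strand). NCOA4 siRNA replicate 1 lay within the control range and the other two libraries below it, so the groups overlapped. The log2 difference was −0.13 without control replicate 1, and −0.046 without control replicate 2, the highest library.

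The balance between the enzyme's mRNA and that of its regulators therefore differed between the groups. The ratio of Odc1 to Oaz1 TPM was 2.61, 2.55 and 2.16 with control siRNA and 1.44, 1.43 and 1.44 with NCOA4 siRNA. The ratio of Odc1 to Azin1 TPM was 5.50, 5.32 and 5.59 with control siRNA and 3.46, 3.58 and 3.66 with NCOA4 siRNA. Neither ratio overlapped between groups, and both contain the Odc1 values that chose the members.

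The catabolic genes gave a mixed picture, with Sat1 and Paox higher and Smox overlapping. Sat1 encodes spermidine/spermine N1-acetyltransferase, which starts polyamine breakdown and export (chrX:155213132-155216449, minus strand). It was at 80.1, 102 and 94.9 TPM with control siRNA and at 110, 105 and 102 TPM with NCOA4 siRNA. The groups were separated by 0.741 TPM and control replicate 1 was lowest by a wide margin. The log2 difference was 0.20 ± 0.0873 SE, and 0.11 without that replicate.

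Paox encodes the peroxisomal oxidase that turns acetylated polyamines back into spermidine and putrescine, and it had the largest positive difference of the 10 members. It was at 18.1, 22.7 and 21.9 TPM with control siRNA and at 24.8, 26.3 and 25.5 TPM with NCOA4 siRNA (chr7:140115799-140137224, plus strand). The groups did not overlap, with a gap of 2.08 TPM. The log2 difference was 0.29 ± 0.0886 SE, and 0.19 without control replicate 1. Gm19680, a pseudogene 99.9% identical to Paox over 1358 bases, was at 9.46 ± 1.36 TPM with control siRNA against 12.8 ± 0.541 TPM with NCOA4 siRNA (SD, n = 3), and with its reads added the log2 difference was 0.32 ± 0.0938 SE. Exons of Paox also overlap those of Echs1 on the opposite strand (13.5 to 17.4 TPM), and the strand setting used for counting is not given in the sources used here.

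Smox, the oxidase that converts spermine directly to spermidine, was at 137, 130 and 144 TPM with control siRNA and at 127, 127 and 131 TPM with NCOA4 siRNA (chr2:131491496-131525922, plus strand). The highest NCOA4 siRNA value was above the lowest control value, so the groups overlapped (−0.09 ± 0.0474 SE, and −0.053 without control replicate 3). Smox and Paox, both flavin-dependent amine oxidases with 56.6% identity over the aligned coding bases, thus had differences of opposite sign.

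**Figure D3:**
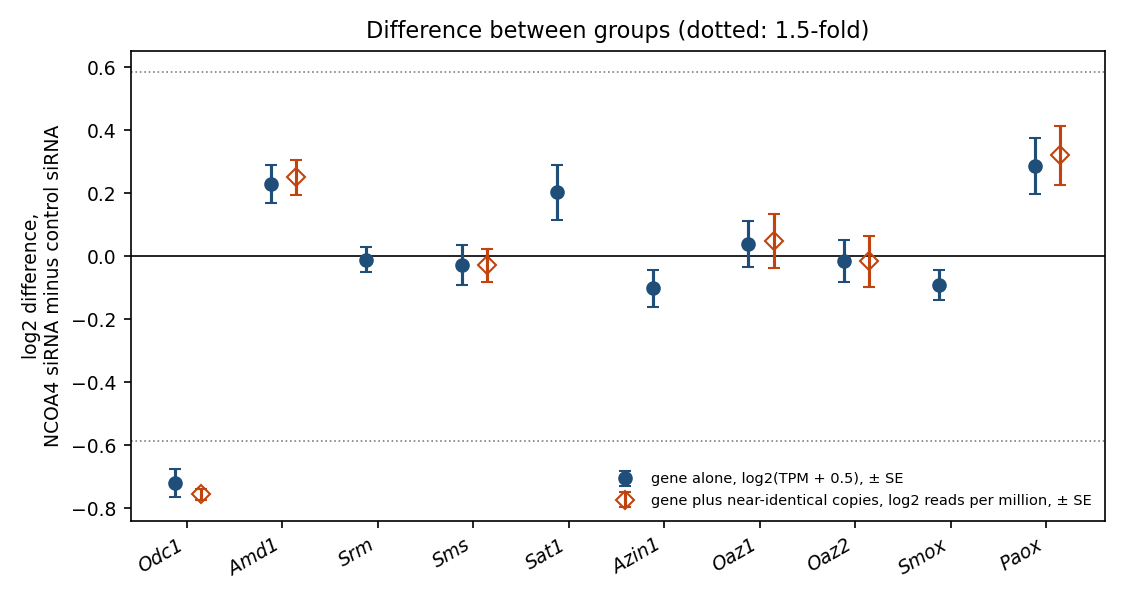
Log2 difference between NCOA4 siRNA and control siRNA for each of the 10 members (circles, log2(TPM + 0.5), ± limma SE), with dotted lines at 1.5-fold. Diamonds give the members with near-identical copies after their reads were summed (log2 RPM, ± SE from the spread within the groups). The error bars of circles and diamonds are not like for like. Odc1, at −0.72 alone and −0.76 with its copies, is the member beyond the 1.5-fold line, while the circles of the other 9 lie between −0.10 and 0.29, and the highest diamond is that of Paox at 0.32.

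As a whole, the members' summed mRNA was lower by about what Odc1 lost. The 10 members summed to 1609 ± 71.1 TPM with control siRNA against 1390 ± 14.1 TPM with NCOA4 siRNA (SD, n = 3). Without Odc1 the other 9 summed to 1007 ± 53.1 and 1025 ± 9.73 TPM, and the groups overlapped. Odc1 made up 38.0%, 38.1% and 36.1% of the summed TPM in the control libraries and 26.4%, 26.2% and 26.3% in the NCOA4 siRNA libraries. By role, the synthesis genes summed to 973 ± 36.4 and 746 ± 7.83 TPM, the control genes to 386 ± 29.2 and 384 ± 5.61 TPM, and the catabolic genes to 250 ± 13.7 and 260 ± 2.15 TPM.

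No gene of the wider pathway passed the main limma test. The list, picked by function, held 38 genes for arginine and ornithine supply, the methionine cycle, paralogs of the members, hypusine, polyamine transport, putrescine oxidation, and Myc and its partners. Of these, 10 were at 0 in all libraries, among them Aoc1 (diamine oxidase) and Otc, another 6 were too low to test, and 22 were tested. In the limma fit 0 of 22 were called at an adjusted p under 0.05, and 8 had an unadjusted p under 0.05 (3 higher, 5 lower), where 21.6% of all tested genes did. limma-voom on rebuilt reads called 4 of 22 (2 higher, 2 lower), where it called 12.6% of the 12135 genes it tested. The median log2 difference was 0.02, with 13 genes higher and 9 lower, and the groups did not overlap for 9 of 22 (4 higher, 5 lower) against the 28.4% of all tested genes given above.

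In ornithine supply no gene was called by the main limma fit, and Slc7a1 was called by limma-voom and by limma with median centring. Arg1, the cytosolic arginase, was abundant, at 271, 342 and 305 TPM with control siRNA and at 360, 340 and 317 TPM with NCOA4 siRNA (log2 difference 0.15 ± 0.0900 SE, limma adjusted p = 0.378). Arg1 overlapped between the groups and was lowest in control replicate 1, without which the log2 difference was 0.068, and it was 0.24 without control replicate 2. Oat, which links ornithine to glutamate, stood at 113 ± 6.33 TPM with control siRNA against 114 ± 5.59 TPM with NCOA4 siRNA (SD, n = 3; limma adjusted p = 0.931). Slc7a1, a cationic amino acid carrier that brings in arginine, was at 72.4, 71.8 and 67.9 TPM with control siRNA and at 64.1, 62.8 and 61.2 TPM with NCOA4 siRNA (−0.17 ± 0.0435 SE, limma adjusted p = 0.0750). Slc7a1, as well as Atp13a2 and Amd2 below, was named after its values were seen.

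In the methionine cycle, which supplies the aminopropyl donor and salvages its by-product, the values went both ways. Mat2a, the enzyme that makes S-adenosylmethionine, was at 205, 232 and 222 TPM with control siRNA and at 247, 243 and 240 TPM with NCOA4 siRNA (0.15 ± 0.0520 SE, limma adjusted p = 0.165, and 0.098 without control replicate 1). Mtap, which salvages the methylthioadenosine left by both aminopropyl transferases, was at 158, 169 and 166 TPM with control siRNA and at 143, 150 and 145 TPM with NCOA4 siRNA (−0.17 ± 0.0419 SE, limma adjusted p = 0.0725). Both genes had groups that did not overlap, in opposite directions. Neither was called by the main limma fit, whereas limma-voom called both, and Mtap was also called by limma with median centring and with quantile normalization.

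The remaining named genes lie downstream of or beside the pathway. Eif5a, the carrier of hypusine and the most abundant gene of the list, was at 1918 ± 78.0 TPM with control siRNA against 1761 ± 19.99 TPM with NCOA4 siRNA (SD, n = 3; log2 difference −0.12 ± 0.0455 SE, limma adjusted p = 0.184). Atp13a2, a lysosomal polyamine exporter, was at 88.8, 91.3 and 106 TPM with control siRNA and at 116, 113 and 124 TPM with NCOA4 siRNA (0.31 ± 0.0746 SE, limma adjusted p = 0.0680). Its groups did not overlap, and limma-voom called it. Slc3a2, a carrier subunit with a proposed part in polyamine transport, was level at 304 ± 5.58 and 298 ± 3.04 TPM (limma adjusted p = 0.664). Amd2, the near-identical copy of Amd1, was at 2.24 ± 0.122 and 2.86 ± 0.134 TPM (0.29 ± 0.119 SE, limma adjusted p = 0.219).

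Myc, a transcription factor for which Odc1 is a textbook target, was at 202, 166 and 164 TPM with control siRNA and at 154, 154 and 154 TPM with NCOA4 siRNA. The groups did not overlap, and control replicate 1 stood well above the other libraries. The log2 difference was −0.19 ± 0.0812 SE (limma adjusted p = 0.231), and it was −0.10 without control replicate 1. Max, the DNA-binding partner of Myc, was at 110 ± 11.2 TPM with control siRNA against 105 ± 0.676 TPM with NCOA4 siRNA (SD, n = 3; limma adjusted p = 0.688).

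**Figure D4:**
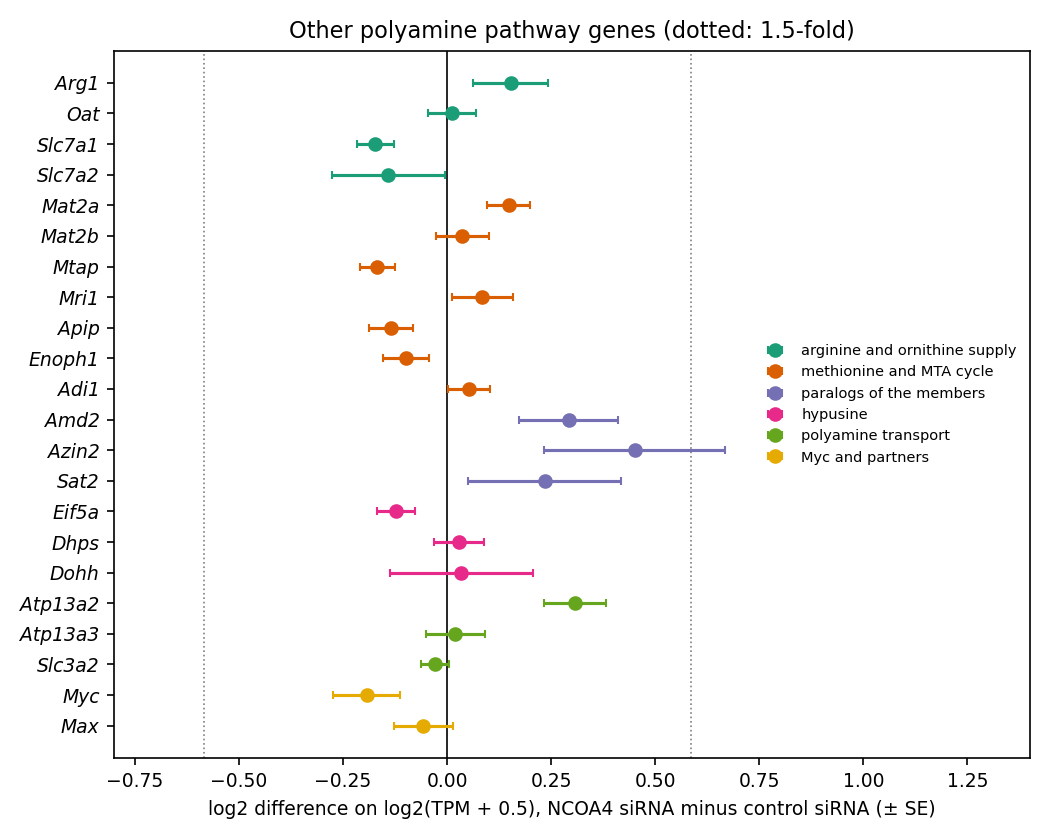
Log2 difference on the log2(TPM + 0.5) scale between NCOA4 siRNA and control siRNA, ± SE, for the 22 tested genes of the wider polyamine pathway, coloured by group, with dotted lines at 1.5-fold. The values lie between −0.19 and 0.45, all within the dotted lines, and none was called at an adjusted p under 0.05 by the main limma fit.

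The genes whose pattern over the 6 libraries was most like that of Odc1 were Cep55, Ctsl and Pfkp, by Pearson correlation of log2(TPM + 0.5) with 10028 genes of at least 5 TPM on average. Cep55, which acts in the last step of cell division, had r = 0.998, Ctsl (cathepsin L, a lysosomal protease) r = 0.997, and Pfkp (a phosphofructokinase of glycolysis) r = 0.997. A correlation above 0.95 was shared by 261 genes, and over 6 libraries in 2 groups it mostly follows the difference between the groups. Ctsl was at 796, 850 and 818 TPM with control siRNA and at 654, 648 and 652 TPM with NCOA4 siRNA, a log2 difference of −0.33 ± 0.0392 SE. Differences of Cep55 (−0.41 ± 0.0430 SE) and Pfkp (−0.44 ± 0.0368 SE) were likewise smaller than that of Odc1.

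Promoters were compared last, as a feature the choice of genes did not use. RefSeq promoter windows (GRCm38.p6, 250 bases before to 50 after a start site) were found for 8 of 10 members by symbol. The GC box GGGCGG, searched on both strands, was in 7 of 8 (all but Oaz1), where 35.7% of 32851 windows hold it. The E-box CACGTG was in 1 of 8 (Sms) against 7.15% of windows, and TATAAA in 1 of 8 (Oaz1) against 13.6%, also on both strands. A member counted if any of its windows held the letters, while the shares are of single windows of all genes, expressed or not. The counts and shares are therefore not like for like, and enrichment was not tested. The stretch of the Odc1 window before its first annotated exon, 171 bases at chr12:17544623-17544793 on the plus strand, is shown because Odc1 is the member with the large difference. It is 77.2% G and C, and capitals mark its 3 GC boxes on either strand. The Odc1 window does not hold these letters of the E-box, which says nothing of where Myc binds.
Odc1: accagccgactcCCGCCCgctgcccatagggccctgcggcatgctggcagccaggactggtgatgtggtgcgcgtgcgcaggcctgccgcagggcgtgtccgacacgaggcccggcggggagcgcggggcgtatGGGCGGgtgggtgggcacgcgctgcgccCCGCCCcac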

How the data were processed

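RNA-seq was made from poly(A)-selected, stranded libraries of 6 J774 samples, sequenced from both ends and grouped by the siRNA named in their labels. The authors deposited TPM for 55487 Ensembl genes for each library and did not scale libraries to each other. The submitters' processing notes name Trimmomatic 0.33, FastQC, HISAT2 2.1.0, featureCounts, edgeR and the build mm10. The annotation, the strand setting and the treatment of reads that match several places are not given in the sources used here, and near-identical genes can lose or share reads by the last of these. Symbols, positions and lengths came from GENCODE M21 (GRCm38) for 55227 genes.

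Genes with a mean of at least 0.5 TPM (13829) were tested with limma 3.58.1 (R 4.3.3) on log2(TPM + 0.5), with a trend and without a block, and Benjamini-Hochberg adjustment over all of them. A fold on this scale understates changes of low genes. Calls needed an adjusted p under 0.05 and, for the stricter rule, a fold above 1.5. Whole reads, within 0.01, were rebuilt from TPM and gene length for 98.4% of the 21096 genes above 0 and used for depth, for sums with copies, and for limma-voom (at least 10 reads on average). Amd1, which has no row in that fit, gave whole reads with a length of 3544 in place of the annotated 3542 bases. Copies were found with blastn. The test was checked on simulated libraries with an even spread and with folds larger than those of the members. It was not checked on smaller folds or with a library that stands apart.

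The members and lists were chosen with earlier results of these data known. Named are all 10 members, Ncoa4, called genes of the pathway list and its 8 genes with the highest mean TPM, and the 3 genes most like Odc1, as well as those marked as named after their values were seen. Alternatives were other pseudocounts, filters and scalings, no trend, a replicate block, limma-voom and each library left out. Replicate numbers pair no cultures in the labels. Some marker genes of the cell type check are not reported here.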

Additional observations from a re-analysis of the deposited data

How the results depend on the processing

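Odc1 stayed called at an adjusted p under 0.05 with a fold above 1.5 in the main setting and all 15 alternatives, with a log2 difference between −0.78 (median centring) and −0.68 (without control replicate 2), and Ncoa4 kept its direction and call between −1.27 and −1.17. Because Odc1 was chosen with this contrast known, its calls describe the same libraries again and are no independent support. Members called at an adjusted p under 0.05 numbered 1 in the main setting, where 5.42% of all tested genes were called. They also numbered 1 in every alternative but limma-voom on rebuilt reads. limma-voom called 2 of 9, adding Paox, where Amd1 was not tested and 12.6% of 12135 genes were called. The share of Odc1 in the summed TPM of the members differed by −11.2 percentage points, and by −11.8 to −10.8 with one library left out. Called genes of the wider pathway numbered 0, but 1 with a mean of at least 5 TPM (Atp13a2), 2 with median centring (Mtap, Slc7a1), 1 with quantile normalization (Mtap) and 4 with limma-voom (Atp13a2, Slc7a1, Mat2a, Mtap), and between 0 and 1 with one library left out (Mtap without control replicate 1, Atp13a2 without control replicate 3). With median centring Oat turned from 0.01 to −0.047. Leaving out one library gave −0.036 to 0.046 for Oat, negative without control replicate 1 or NCOA4 siRNA replicate 1, and −0.10 to 0.025 for Max, positive without control replicate 1, and the cause was not tested. Srm, Sms, Oaz1 and Oaz2, all within 0.04 of 0, changed sign in at least 1 alternative, and the other 6 members in none.

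Over all tested genes 750 were called, 1526 with limma-voom, 499 without a filter, 404 without a trend, and 127 to 807 with one library left out. With median centring 35.9% of called genes were higher, against 57.3% as reported, although it moved the median of all genes only from 0.03 to −0.03. Deviations from the group means correlated by 0.03, −0.02 and 0.02 between samples with the same replicate number. With so few libraries these values cannot decide whether the numbers mark a pairing, and the labels name none. A replicate block called 161 genes, among them 1 member and 0 of the wider pathway. Every member had at least 442 reads in every library, whereas Amd2 rests on 36 to 56 reads.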
